A study of Mus musculus with 6 samples.

Results

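Lyz2 and 9 genes of embryonic macrophages, Csf1r, Cx3cr1, Tyrobp, Fcer1g, C1qa, C1qb, C1qc, Ctss and Mrc1, were examined in RNA-seq libraries of mouse tailbuds. These 10 of the 54134 genes in the count table were chosen by name as macrophage genes, with their co-variation across the 6 libraries and the difference between genotypes in view, so their levels and differences are a description and carry no test. All 6 libraries came from tailbuds of C57BL/6 embryos at E10.5, taken as the tissue caudal to the last somite. The 2 Cdx2P:Nr6a1 libraries came from transient transgenic embryos, made by pronuclear injection of a transgene in which a Cdx2 promoter drove Nr6a1. The 4 other libraries were labelled as wildtype tailbuds of the Cdx2P:Nr6a1 experiment. Each transient transgenic embryo is its own integration event, so copy number and insertion site could differ between the 2 libraries of that group.

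Macrophages of the mid-gestation embryo descend from yolk sac progenitors and seed every tissue, where they engulf dying cells. They depend on the receptor Csf1r and its ligands Csf1 and Il34, signal through adaptors with ITAM motifs, and secrete the complement protein C1q. Lyz2 encodes lysozyme M, an enzyme that cuts bacterial cell walls and is abundant in maturing macrophages and in granulocytes, and it is often low in the youngest embryonic macrophages.

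Library totals lay between 44073460 and 67183802 counts. Levels are given as CPM, the counts scaled to the total of the library, and as RPKM, CPM per kilobase of deposited exon length, wherever different genes are set beside each other. The check of the labels came out as labelled, since Nr6a1 stood at 3.91, 5.18, 5.53 and 6.89 CPM in wildtype replicates 1 to 4 and at 23.4 and 33.8 CPM in Cdx2P:Nr6a1 replicates 1 and 2. Tailbud genes were high in every library, with T (brachyury) between 886 and 1189 CPM and Tbx6, a presomitic mesoderm factor, between 206 and 273 CPM. Cdx2P:Nr6a1 replicate 2 stood apart. There, 42 genes with a count of 20 or more reached at least 3 times the CPM of every other library. In each other library 2 to 15 genes did. Cdx2P:Nr6a1 replicate 2 was also the deepest library, with 16732 genes at that count, against 15693 to 16194 in the others. Fold changes of the members are therefore given with and without it. These were bulk tissue samples, so fewer macrophages and less RNA per macrophage cannot be told apart.

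The members were lowly expressed. Over all 6 libraries, the summed counts ran from 561 for C1qa to 2719 for Lyz2, and the lowest count of any member in any library was 43. All 10 passed the filter on low counts, set at more than 10 counts with more than 2 CPM in 2 or more libraries, as did 12733 genes in all. Pan-leukocyte genes were present beside them at similar CPM: Ptprc (CD45) lay between 2.02 and 4.65 CPM and Spi1, which encodes the myeloid regulator PU.1, between 0.788 and 2.47 CPM. Adgre1, which encodes the macrophage antigen F4/80, lay between 0.363 and 2.04 CPM and was below the filter, as was the microglial receptor Trem2, between 0.143 and 0.858 CPM. The macrophage label therefore rested on a small signal in which these 4 genes and all members were detected in every library.

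Upstream sequence is shown for Lyz2 and its neighbouring paralog Lyz1, because some reads of the pair could be confused, and for members with a copy of AGGAAG, a core of the sites that ETS factors such as PU.1 can bind. The sequences are from RefSeq (GRCm38.p6), read 5′ to 3′ on the strand of each gene and upstream of its deposited exons, and capitals mark AGGAAG or its reverse complement CTTCCT. The Lyz2 stretch is chr10:117282322-117282522 and the Lyz1 stretch is chr10:117292918-117293118, both 201 bases on the minus strand.
Lyz2: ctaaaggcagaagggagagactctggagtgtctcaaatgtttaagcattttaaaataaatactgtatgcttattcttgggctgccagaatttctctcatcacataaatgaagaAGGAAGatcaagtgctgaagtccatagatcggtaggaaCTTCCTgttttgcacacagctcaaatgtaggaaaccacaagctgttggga
Lyz1: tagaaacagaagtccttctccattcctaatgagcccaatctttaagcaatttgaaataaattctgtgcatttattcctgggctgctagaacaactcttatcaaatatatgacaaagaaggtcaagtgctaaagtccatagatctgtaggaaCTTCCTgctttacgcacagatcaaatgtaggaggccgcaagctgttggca
Compared base by base without gaps, 103 of the 201 bases were identical between Lyz2 and Lyz1 (51.2%). These were 77 of the 90 bases nearest to the genes (85.6%) and 26 of the other 111 (23.4%). Without gaps, stretches shifted against each other by an inserted or lost base count as different. The value for the other 111 bases therefore does not measure how alike they are. CTTCCT stood at the same place in both, and the Lyz2 stretch held a further AGGAAG that the Lyz1 stretch did not.

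Among the 9 other members, windows of 26 bases are shown around the copy nearest to the gene whose whole window lies upstream of the deposited exons. They were at chr1:171234378-171234403 for Fcer1g, chr4:136886237-136886262 for C1qb, chr4:136893093-136893118 for C1qc and chr2:14229236-14229261 for Mrc1, of which the last is on the plus strand and the others are on the minus strand.
Fcer1g: tctgtagtacAGGAAGgggaaggggc
C1qb: ggacctgaaaCTTCCTgagggcagca
C1qc: acggcagacaCTTCCTcattttggca
Mrc1: cctctctcccCTTCCTcctgtgcctt
Promoters were matched for 7 of the 10 members, and 5 of these 7 held the motif on either strand in the 250 bases before the RefSeq start, as did 8734 of 27025 genes with a promoter (32.3%). Neither Cx3cr1 nor Ctss had a copy in that window. The entries for Csf1r, Tyrobp and C1qa were missing. A match describes letters in the window and is not a measured binding site.

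Lyz2 (mm10 chr10:117277331-117282321, minus strand) showed the widest range of the 10 members. Its level was 5.19, 1.38, 2.32 and 2.40 CPM in wildtype replicates 1 to 4, 4.99 CPM in Cdx2P:Nr6a1 replicate 1 and 28.7 CPM in Cdx2P:Nr6a1 replicate 2, from counts of 255, 77, 130, 108, 220 and 1929. Cdx2P:Nr6a1 replicate 2 was thus 10.2 times the wildtype mean of 2.82 ± 1.64 CPM (SD, n = 4), whereas replicate 1 lay within the wildtype range, below wildtype replicate 1. The groups overlapped. The log2 fold change, Cdx2P:Nr6a1 minus wildtype, was 2.59 (SE 0.61) with all libraries, 3.35 (SE 0.45) without Cdx2P:Nr6a1 replicate 1 and 0.81 (SE 0.54) without Cdx2P:Nr6a1 replicate 2. The size of the Lyz2 difference was therefore set by 1 library.

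The paralog Lyz1, a lysozyme of Paneth cells, is a possible source of miscounted reads. In the GENCODE M21 transcripts, 74 of 1242 stretches of 75 bases in Lyz2, the read length, also occurred in Lyz1 (5.96%). Lyz1 itself had 10, 0, 2 and 0 counts in the wildtype libraries and 2 and 18 in the Cdx2P:Nr6a1 libraries, or at most 3.92% of the Lyz2 count of the same library. The Lyz2 exons overlapped no exon of another gene in the count table.

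**Figure D1:**
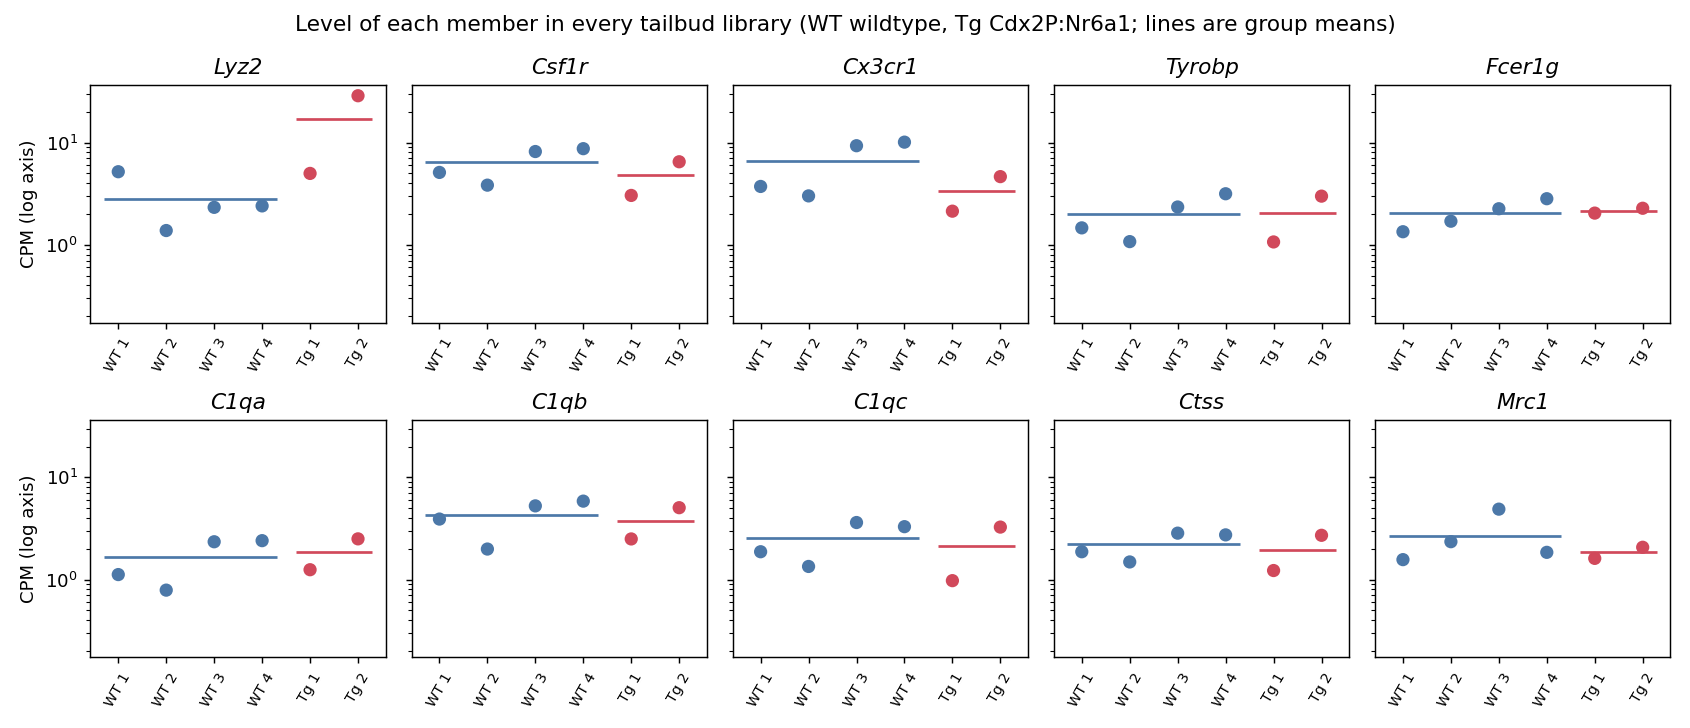
Level of each of the 10 members in every library, in CPM on a logarithmic axis shared by all panels, with the 4 wildtype libraries in blue, the 2 Cdx2P:Nr6a1 libraries in red and group means as lines. Lyz2 reached 28.7 CPM in Cdx2P:Nr6a1 replicate 2. For all 10 members, Lyz2 included, at least 1 Cdx2P:Nr6a1 library lay within the wildtype range.

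Of the surface receptors, Csf1r encodes the receptor on which macrophage survival depends. It stood at 5.11, 3.83, 8.17 and 8.72 CPM in wildtype replicates 1 to 4 and at 3.04 and 6.49 CPM in Cdx2P:Nr6a1 replicates 1 and 2. Cdx2P:Nr6a1 replicate 1 was the lowest of all libraries, and replicate 2 lay between the lower and the higher pair of wildtype libraries. The log2 fold change was -0.42 (SE 0.37), moving to -1.09 without replicate 2 and to 0.01 without replicate 1. Exons of Hmgxb3 on the opposite strand covered 17.8% of the Csf1r exon bases, and whether the counting used strand is not stated.

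Cx3cr1 (chr9:119901616-120069879), the fractalkine receptor of microglia and their precursors, stood at 3.72, 3.01, 9.32 and 10.1 CPM in the wildtype libraries and at 2.13 and 4.64 CPM in the Cdx2P:Nr6a1 libraries. It ranked all 6 libraries in the same order as Csf1r. The log2 fold change was -0.92 (SE 0.52), and it was below 0 with each library left out, between -1.62 (without Cdx2P:Nr6a1 replicate 2) and -0.49 (without replicate 1). Its ratio to Csf1r in CPM, compared only between libraries, was 1.14 and 1.16 in wildtype replicates 3 and 4 and between 0.701 and 0.785 in the other 4 libraries.

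Mrc1 (chr2:14229392-14332057), the mannose receptor CD206, followed another course. Its level was 1.57, 2.35, 4.88 and 1.85 CPM in the wildtype libraries and 1.61 and 2.07 CPM in the Cdx2P:Nr6a1 libraries, so that wildtype replicate 3 alone was high. Wildtype replicate 4, which had the highest Csf1r and Cx3cr1, was not high for Mrc1. The log2 fold change was -0.53 (SE 0.42), -0.06 without wildtype replicate 3, and -0.74 when Cdx2P:Nr6a1 replicate 2 was left out.

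The ITAM adaptors Tyrobp (DAP12) and Fcer1g (the common Fc receptor gamma chain) pass signals from surface receptors to the kinase Syk. Tyrobp (chr7:30413760-30417585) stood at 1.46, 1.07, 2.34 and 3.16 CPM in the wildtype libraries and at 1.07 and 2.99 CPM in the Cdx2P:Nr6a1 libraries. Fcer1g (chr1:171229572-171234365) stood at 1.34, 1.70, 2.25 and 2.82 CPM and at 2.04 and 2.28 CPM in the same order. Tyrobp thus differed 2.81-fold between the 2 Cdx2P:Nr6a1 libraries and Fcer1g 1.12-fold. The log2 fold changes between groups were 0.06 (SE 0.47) for Tyrobp and 0.09 (SE 0.28) for Fcer1g, both smaller than their errors, and -0.91 and 0.002 without Cdx2P:Nr6a1 replicate 2.

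C1qa, C1qb and C1qc, which encode the 3 chains of the complement starter C1q, lie beside each other on chromosome 4, on the minus strand, between 136880129 and 136898803. C1qa stood at 1.12, 0.788, 2.34 and 2.40 CPM in the wildtype libraries and at 1.25 and 2.50 CPM in the Cdx2P:Nr6a1 libraries. C1qb stood at 3.91, 1.99, 5.26 and 5.85 CPM in the former and at 2.50 and 5.05 CPM in the latter. For C1qc the levels were 1.87, 1.34, 3.61 and 3.29 CPM, then 0.976 and 3.26 CPM. For all 3 chains, wildtype replicates 3 and 4 and Cdx2P:Nr6a1 replicate 2 were the 3 highest libraries. Per kilobase, C1qa was 0.300 to 0.523 times C1qb and C1qc was 0.220 to 0.387 times C1qb, so C1qb was the highest chain in every library. The log2 fold changes between groups were 0.20 (SE 0.45), -0.15 (SE 0.40) and -0.22 (SE 0.49) for C1qa, C1qb and C1qc, and without Cdx2P:Nr6a1 replicate 2 they were -0.42, -0.77 and -1.38.

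Ctss (chr3:95526786-95556403) encodes cathepsin S, a lysosomal protease that trims the invariant chain in antigen presentation. It stood at 1.87, 1.49, 2.84 and 2.74 CPM in the wildtype libraries and at 1.23 and 2.71 CPM in the Cdx2P:Nr6a1 libraries, and it ranked the libraries in the same order as C1qc. The log2 fold change was -0.15 (SE 0.35), and -0.87 without Cdx2P:Nr6a1 replicate 2.

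The edgeR quasi-likelihood test called 0 of the 10 members at an adjusted p under 0.05, against 203 of 12733 genes tested (1.59%), and 1 member, Lyz2, had an unadjusted p under 0.05. DESeq2 and limma voom also called 0 members, and the likelihood ratio test of edgeR called 1, Lyz2. For 0 of the 10 members were both Cdx2P:Nr6a1 libraries outside the wildtype range on the same side, against 2369 of 12733 genes (18.6%). Since this contrast was in view when the members were chosen, nothing is read from these counts.

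**Figure D2:**
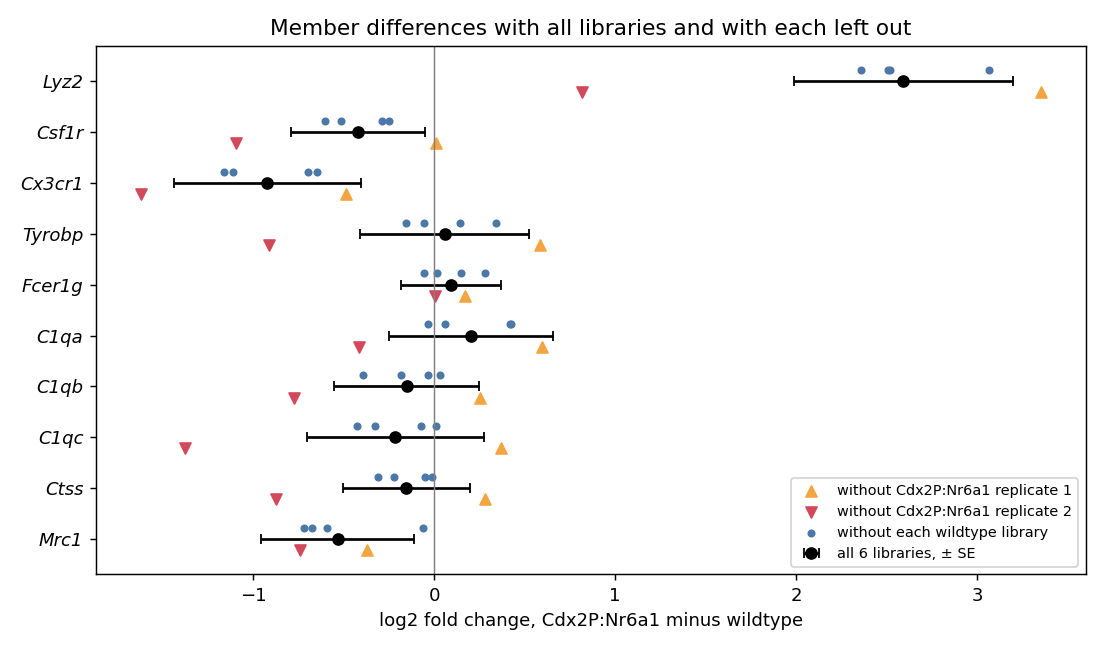
Log2 fold change of each member, Cdx2P:Nr6a1 minus wildtype, with all 6 libraries (black, ± SE), without each wildtype library (blue) and without either Cdx2P:Nr6a1 library (triangles). Lyz2 ran from 0.81 to 3.35. Csf1r, Tyrobp, C1qa, C1qb, C1qc and Ctss were below 0 without Cdx2P:Nr6a1 replicate 2 and above 0 without replicate 1, where Csf1r was at 0.01.

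Of the members other than Lyz2, 7 rose and fell together from library to library, while Fcer1g and Mrc1 followed them less closely. These 7 were grouped after their correlations were seen. Each of the 7 was higher in wildtype replicates 3 and 4 than in replicates 1 and 2. Each was also higher in Cdx2P:Nr6a1 replicate 2 than in replicate 1. The summed level of the 9 members other than Lyz2 was 21.97, 17.6, 41.0 and 40.9 CPM in wildtype replicates 1 to 4. It was 15.8 and 32.0 CPM in the Cdx2P:Nr6a1 libraries, a 2.59-fold range from the lowest library to the highest. Wildtype replicates 3 and 4 and Cdx2P:Nr6a1 replicate 2 formed the high side. The group means were 30.4 ± 12.4 CPM (SD, n = 4) in wildtype and 23.9 ± 11.4 CPM (SD, n = 2) in Cdx2P:Nr6a1, a difference smaller than the spread within either group.

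Among Csf1r, Cx3cr1, Tyrobp, C1qa, C1qb, C1qc and Ctss, Pearson's r of log2 CPM over the 6 libraries lay between 0.76 and 0.9996 in the 21 pairs, with a median of 0.92. Fcer1g followed these 7 genes less closely (r 0.54 to 0.79), and Mrc1 correlated with the other 8 at r 0.26 to 0.54. Lyz2 correlated with the 9 others at r -0.30 to 0.41. All points share the same 6 libraries, and this co-variation was part of how the members were chosen. The 7 genes were in addition picked from these same correlations, so the values only describe these libraries.

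Set against the mean standardized level of the 9 others, Lyz2 had r = 0.15 and Spearman's rho = -0.09 over 6 libraries, and r = -0.24 without the 2 libraries farthest from the median of that mean. Lyz2 amounted to 23.6%, 7.85%, 5.67% and 5.87% of the summed CPM of the 9 others in wildtype replicates 1 to 4. In Cdx2P:Nr6a1 replicates 1 and 2 it amounted to 31.5% and 89.8%. Wildtype replicates 3 and 4, which were high for the 9 others, thus had the lowest shares of Lyz2. Both Cdx2P:Nr6a1 libraries had a higher share than all 4 wildtype libraries, and replicate 1 also had the lowest sum of the 9 others.

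**Figure D3:**
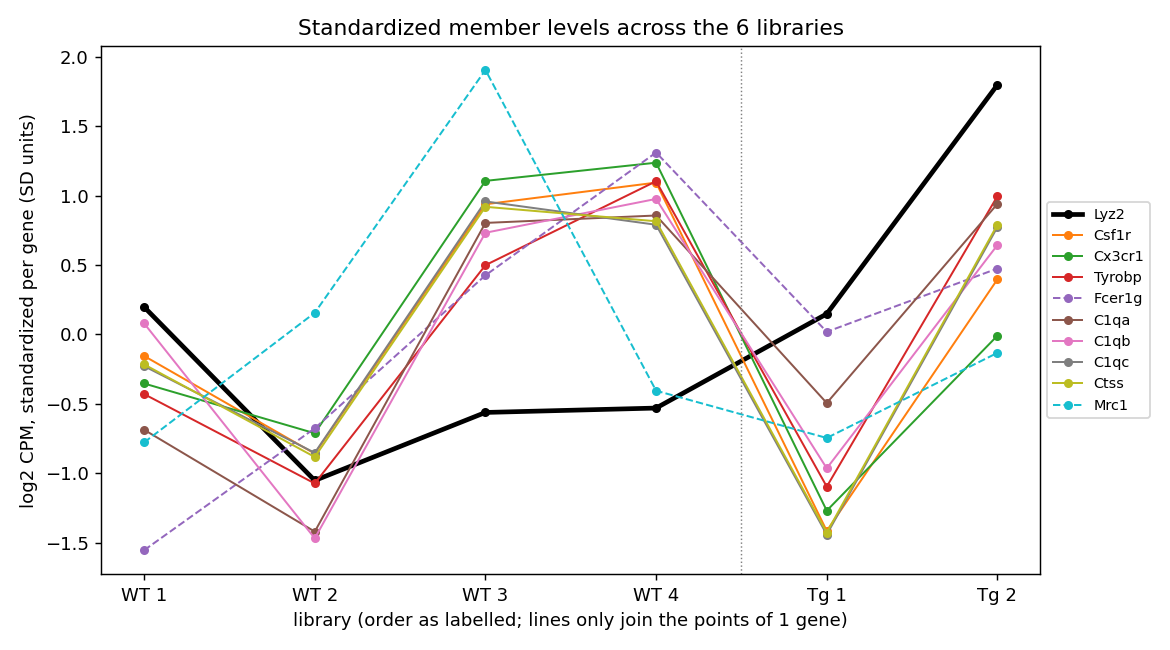
Log2 CPM of each member in the 6 libraries, standardized per gene to SD units, with Lyz2 as the thick black line and Fcer1g and Mrc1 dashed. The mean of the 9 other members was 0.92 and 0.86 in wildtype replicates 3 and 4 and 0.54 in Cdx2P:Nr6a1 replicate 2, while Lyz2 was at -0.56, -0.53 and 1.80 there.

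Of all genes that passed the filter, the 8 most like the mean of the 9 members in log2 CPM over the 6 libraries were Zbtb40, AC154667.2, Msantd3, Slc35e1, Mpeg1, Blzf1, Ubfd1 and Zadh2, at r 0.97 to 0.98. Mpeg1, which encodes perforin-2 of macrophages, was the only macrophage gene of the lists among them. With 6 libraries, 113 of 12733 genes had r above 0.9. The 8 genes most like Lyz2 were Rps13-ps2, Slc25a30, Sh3bgrl3, Arfrp1, Rcl1, Chodl, Nat8l and Usp32, at r 0.96 to 0.97, with 62 genes above 0.9 and no member among the 8.

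Per kilobase, the wildtype order of the members began with C1qb at 3.91 ± 1.57 RPKM, Tyrobp at 3.01 ± 1.40 RPKM and Fcer1g at 2.32 ± 0.742 RPKM (SD, n = 4). Lyz2 at 2.15 ± 1.25, Ctss at 1.65 ± 0.487, C1qa at 1.60 ± 0.799, Cx3cr1 at 1.45 ± 0.818, Csf1r at 1.32 ± 0.484 and C1qc at 1.31 ± 0.567 RPKM followed. Mrc1 came last at 0.418 ± 0.238 RPKM. All neighbours in this order overlapped in range. C1qb was above Tyrobp, C1qa above Cx3cr1 and C1qc above Mrc1 in 4 of 4 wildtype libraries. The order of means held in 3 of 4 for Tyrobp over Fcer1g, Fcer1g over Lyz2 and Csf1r over C1qc. It held in 2 of 4 for Ctss over C1qa and Cx3cr1 over Csf1r, and in only 1 of 4 for Lyz2 over Ctss. In the Cdx2P:Nr6a1 libraries Lyz2 came first, at 3.79 RPKM in replicate 1 and 21.8 RPKM in replicate 2.

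The high Lyz2 of Cdx2P:Nr6a1 replicate 2 did not stand alone in that library. Of the 16732 genes with a count of 20 or more there, 42 stood out, and 5 of these were members or listed macrophage pathway genes. They were Lyz2, the complement gene C4b, and Marco, Vsig4 and Timd4, which encode receptors of tissue-resident macrophages. The share of listed genes that reached 20 counts was not computed, so nothing is read from the 5. Marco and Vsig4 reached that minimum narrowly, with 23 and 21 counts, in the deepest library. C4b stood at 0.570, 0.197, 0.107 and 0.133 CPM in the wildtype libraries and at 0.454 and 5.21 CPM in the Cdx2P:Nr6a1 libraries. Timd4 stood at 0.670 CPM in Cdx2P:Nr6a1 replicate 2 and at 0.179 CPM or less in the other 5 libraries. Marco had 23 counts in Cdx2P:Nr6a1 replicate 2 and 0 in each of the others, where a count of 0 allows up to 0.0536 to 0.0681 CPM (3 counts, counting error only).

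The following genes were chosen after their values were seen. Cd5l, a protein secreted by macrophages, stood at 1.13 CPM in Cdx2P:Nr6a1 replicate 2 and at 0.113 CPM or less elsewhere. The acute-phase gene Saa3 stood at 7.34 CPM there and at 0.447 to 1.95 CPM in the other libraries. Prg4 (lubricin) and the fatty acid carrier Fabp4 stood at 3.63 and 2.08 CPM there, with the next highest library at 0.814 and 0.340 CPM. Of the leukocyte genes, Cybb, a subunit of the phagocyte oxidase, stood at 2.32 CPM against 0.269 to 0.817 CPM, and the integrin gene Itgam at 0.819 CPM against 0.178 to 0.285 CPM. Not all phagocyte genes were high in this library. Cd68 stood at 2.77 CPM there, within the wildtype range of 2.28 to 3.29 CPM, and Cd163 at 0.625 CPM, within 0.445 to 0.698 CPM. The 27 pan-macrophage and pan-leukocyte genes summed to 163 CPM there and to 144 to 174 CPM in wildtype. Lcp1 and Cyba made up 39.2 and 31.6 CPM of the 163 CPM, so the sum says little about the lower genes of that list. Csf1r, at 6.49 CPM, was within the wildtype range as well.

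The 42 genes also held genes of the placenta. They included Prl3d1, Prl3b1, Prl7d1, Prl4a1, Prl2a1 and Prl2c5 of the prolactin family, made by trophoblast, the placental cathepsin Ctsj and the steroid-making enzyme Cyp11a1. Cyp11a1 stood at 4.72 CPM in Cdx2P:Nr6a1 replicate 2 and at 0.322 to 0.953 CPM in the others. Summed over the 25 placental prolactin family genes in the table, however, the level was 9.68, 5.52, 0.662 and 31.5 CPM in wildtype replicates 1 to 4 and 32.8 and 40.04 CPM in Cdx2P:Nr6a1 replicates 1 and 2. Wildtype replicate 4 and Cdx2P:Nr6a1 replicate 1, where the family summed to 31.5 and 32.8 CPM, had Lyz2 at 2.40 and 4.99 CPM. The part of placental tissue in the Lyz2 value was not tested.

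Granulocytes express Lyz2 as well. The 12 granulocyte markers summed to 11.3, 2.97, 2.74 and 3.31 CPM in wildtype replicates 1 to 4 and to 5.22 and 7.37 CPM in Cdx2P:Nr6a1 replicates 1 and 2. The 3 libraries with the highest sums, wildtype replicate 1 and both Cdx2P:Nr6a1 libraries, were the 3 with the highest Lyz2. Mpo (myeloperoxidase) made up most of the sum in wildtype replicate 1, at 6.997 CPM, 11 of the 12 markers were below the filter, and Ngp was at 0 in all libraries. In wildtype replicate 1 the eosinophil granule genes Prg2 and Prg3 had 145 and 30 counts, against at most 7 and 0 in any other library, and these 2 were chosen after their values were seen. The part of granulocytes in the Lyz2 values was not tested.

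**Figure D4:**
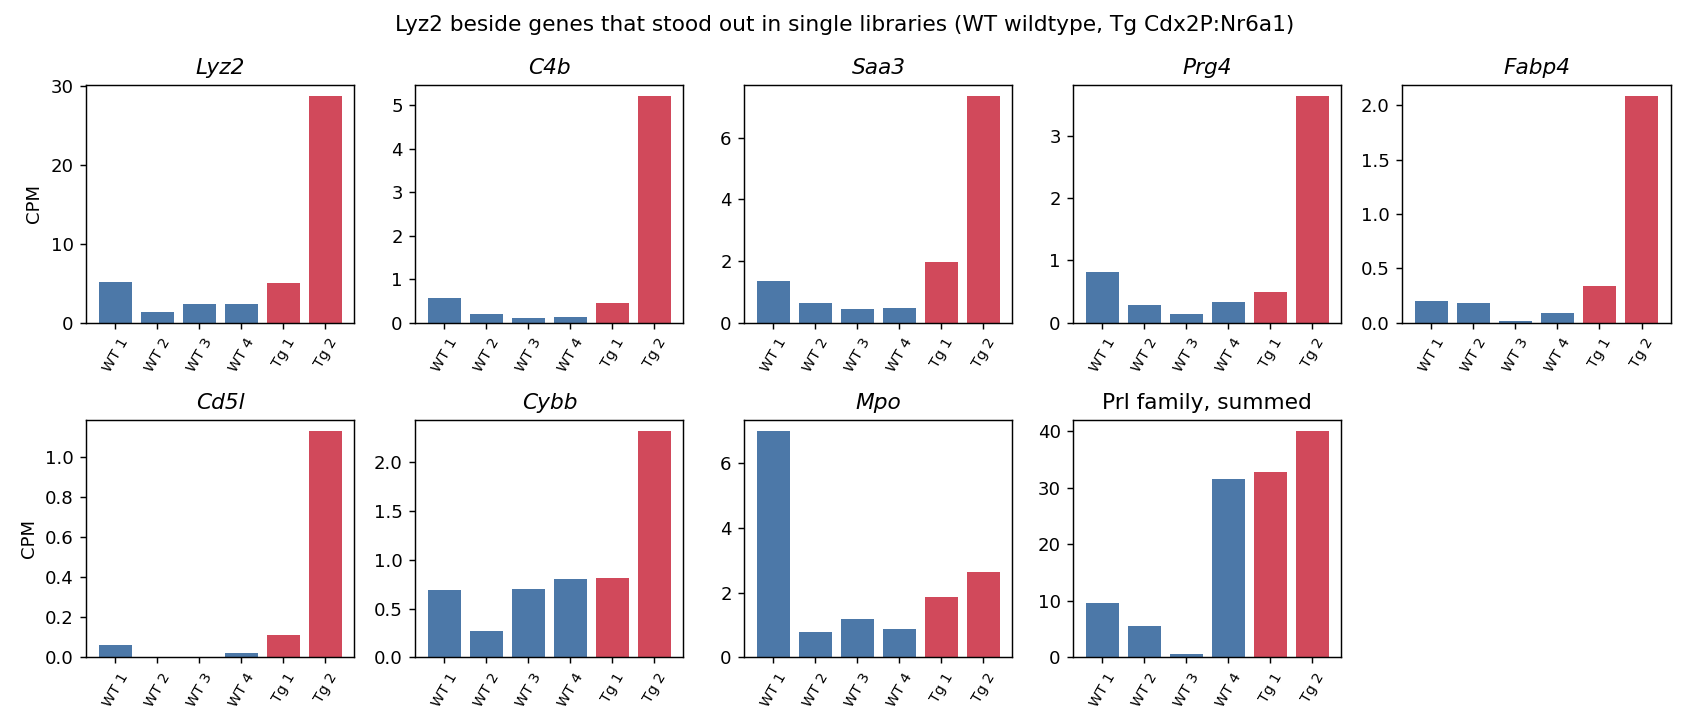
CPM by library of Lyz2, of 7 genes that stood out in single libraries and of the summed placental prolactin (Prl) family, each panel on its own linear axis from 0, with wildtype in blue and Cdx2P:Nr6a1 in red. C4b, Saa3, Prg4, Fabp4, Cd5l and Cybb were highest in Cdx2P:Nr6a1 replicate 2 as Lyz2 was, Mpo was highest in wildtype replicate 1 at 6.997 CPM, and the Prl sum was high in 3 libraries.

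Of the remaining marker lists, mast cell and basophil markers summed to 0.304 to 0.915 CPM in wildtype and to 0.363 and 0.819 CPM in Cdx2P:Nr6a1, with Fcer1a at 0 in all libraries and 9 of 9 markers below the filter. Lymphoid markers summed to 1.41 to 1.99 CPM in wildtype and to 2.18 and 2.10 CPM in Cdx2P:Nr6a1, with Ncr1 at 0 and 10 of 10 below the filter. Megakaryocyte and progenitor markers (89.96 to 113 CPM in wildtype, 106 and 115 CPM in Cdx2P:Nr6a1) and endothelial markers (249 to 310 CPM, then 262 and 321 CPM) overlapped between groups. Primitive erythroid markers summed to 8507 to 20631 CPM in wildtype and to 10275 and 14151 CPM in Cdx2P:Nr6a1. Surface ectoderm markers summed to 215 to 305 CPM in wildtype and to 321 and 282 CPM in Cdx2P:Nr6a1. Gut endoderm markers summed to 455 to 568 CPM in wildtype and to 663 and 568 CPM in Cdx2P:Nr6a1, and 1 of the 9 tested, the keratin gene Krt18, was called higher (log2 fold change 0.37, SE 0.06, adjusted p = 0.0264, edgeR). Krt18 lost this call in 4 of the 6 edgeR fits with 1 library left out, with adjusted p between 0.0519 and 0.169.

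The ligands were then examined, with 145 other genes of macrophage pathways in 8 lists. In the edgeR quasi-likelihood test, 75 of the 145 passed the filter, 1 was called lower and 0 higher (1.33%, against 1.59% of all genes tested), and 7 had an unadjusted p under 0.05 (9.33%, against 10.54% of all genes tested). Their median log2 fold change was -0.004, beside -0.001 over all 12733 genes. For 10 of the 75, both Cdx2P:Nr6a1 libraries were outside the wildtype range on the same side, which is 13.3% against 18.6% of all genes.

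Csf1, which encodes the main ligand of Csf1r, was the gene called. It stood at 50.1, 46.0, 44.4 and 43.4 CPM in wildtype replicates 1 to 4 and at 29.9 and 31.9 CPM in Cdx2P:Nr6a1 replicates 1 and 2. The groups did not overlap, and both Cdx2P:Nr6a1 libraries were below every wildtype library. Csf1 fell by 0.58 on the log2 scale (SE 0.07, adjusted p = 0.00693, edgeR quasi-likelihood test). The adjusted p lay between 2.07e-12 and 0.0727 over the alternatives, and it was above 0.05 only without Cdx2P:Nr6a1 replicate 1, where the log2 fold change was -0.53. Unlike Lyz2, Csf1 was similar in the 2 Cdx2P:Nr6a1 libraries. The other ligand, Il34, had 1 count in all 6 libraries together.

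Of the other genes of Csf1r signalling, 11 of 14 with Csf1 included passed the filter. Plcg2, a phospholipase gene, stood at 9.62 to 11.1 CPM in wildtype and at 12.4 and 13.3 CPM in Cdx2P:Nr6a1, so that the groups did not overlap. Its log2 fold change was 0.27 (SE 0.09, adjusted p = 0.30, edgeR). Inpp5d, the lipid phosphatase SHIP1 of blood cells, had -0.29 (SE 0.24, adjusted p = 0.80, edgeR).

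Among 12 myeloid regulators tested, 0 were called by edgeR and 2 had an unadjusted p under 0.05. Spi1 had a log2 fold change of -0.47 (SE 0.46, adjusted p = 0.86, edgeR). It was highest in wildtype replicate 4 (2.47 CPM), as Csf1r was, but second highest in wildtype replicate 1 (2.26 CPM), where the summed members were low. The abundant Id3 and Zeb2, which many tailbud cells express, had log2 fold changes of 0.01 (SE 0.16) and 0.06 (SE 0.14).

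Of the ITAM and Syk list, 3 of 20 genes passed the filter, so that most partner receptors of Tyrobp and Fcer1g were too low to test. Blnk, Sirpa and Syk had log2 fold changes of -0.001 (SE 0.05), -0.002 (SE 0.12) and -0.01 (SE 0.10). Of the chemokine list, 4 of 14 genes were tested and 0 called by edgeR. Cxcl12, a guidance chemokine of migrating cells, stood at 179, 172, 197 and 264 CPM in wildtype and at 243 and 257 CPM in Cdx2P:Nr6a1 (adjusted p = 0.55, edgeR). Its receptor gene Cxcr4 stood at 47.6, 70.9, 52.8 and 73.8 CPM in wildtype and at 35.1 and 51.8 CPM in Cdx2P:Nr6a1 (log2 fold change -0.49, SE 0.20, adjusted p = 0.42, edgeR). Cx3cl1, the ligand of Cx3cr1, had a log2 fold change of -0.17 (SE 0.10, adjusted p = 0.70, edgeR).

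In the complement list, 6 of 17 genes were tested and 0 called by edgeR. The largest values were those of Itgb2, the shared chain of the leukocyte integrins, at 0.55 (SE 0.34), and of Cfp (properdin), at 0.27 (SE 0.09, adjusted p = 0.30, edgeR). Itgb2 stood at 3.48 CPM in Cdx2P:Nr6a1 replicate 2 and at 1.29 to 2.00 CPM in all other libraries. The broadly expressed Calr and Lrp1 had log2 fold changes of 0.03 (SE 0.07) and -0.15 (SE 0.07).

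Lysosomal genes were the most fully measured list, with 19 of 22 tested and 0 called or under an unadjusted p of 0.05 in the edgeR test. Psap, Ctsl and Ctsc had log2 fold changes of 0.03, -0.04 and -0.22, with SE between 0.05 and 0.11. Of the scavenger and efferocytosis receptors, 6 of 16 were tested and 0 called by edgeR. Mertk, a receptor for dying cells, stood at 6.55, 5.55, 7.26 and 7.27 CPM in wildtype and at 8.42 and 8.87 CPM in Cdx2P:Nr6a1 (log2 fold change 0.37, SE 0.13, adjusted p = 0.26, edgeR). Its ligand genes Gas6 and Pros1 had 0.07 (SE 0.19) and 0.03 (SE 0.07), and Colec12 had 0.02 (SE 0.09).

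Of the pan-macrophage and pan-leukocyte genes, 14 of 27 were tested, 0 were called and 0 had an unadjusted p under 0.05 (edgeR), with a median log2 fold change of -0.10. Ptprc and Nckap1l, a leukocyte subunit of the WAVE complex, had -0.41 (SE 0.30, adjusted p = 0.77) and -0.38 (SE 0.27, adjusted p = 0.76) in the edgeR test. Lcp1 and Cyba had -0.16 (SE 0.14) and -0.03 (SE 0.06). Ptprc stood at 3.17, 2.24, 4.17 and 4.65 CPM in wildtype and at 2.02 and 3.26 CPM in Cdx2P:Nr6a1, with the same 2 wildtype libraries high as for Csf1r.

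**Figure D5:**
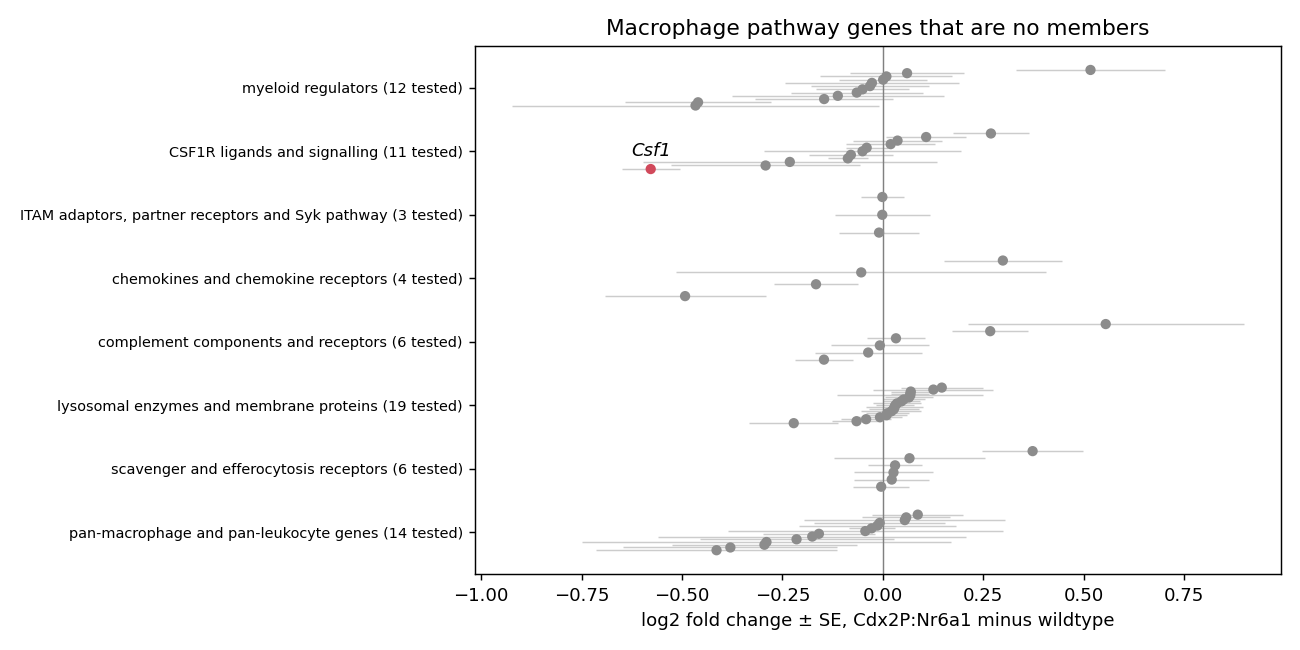
Log2 fold change ± SE, Cdx2P:Nr6a1 minus wildtype, of the 75 pathway genes that passed the filter, by list, with genes called by the edgeR quasi-likelihood test in red. Csf1, at -0.58, was the 1 gene called.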

How the data were processed

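RNA was measured in 6 tailbuds of E10.5 mouse embryos. The kit was a stranded polyA one, with 50 ng RNA per library and 75 bp single-end reads. The authors aligned the reads with STAR (submitters' notes: mm10) and deposited raw counts per gene with exon coordinates. The counting program and its use of strand are not given in the sources used here. A second file of the authors' edgeR fold changes, p-values and FDR was not used. The members and gene lists were chosen with earlier results of these data known.

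The deposited counts were fitted with edgeR 4.0.16 in R 4.3.3, while DESeq2 1.42.0 and limma 3.58.1 served as alternatives and Python 3.11.15 made the tables. Following the study, a gene needed more than 10 counts and more than 2 CPM in 2 or more libraries. TMM normalization was used, and the edgeR quasi-likelihood test compared 2 Cdx2P:Nr6a1 with 4 wildtype libraries at a Benjamini-Hochberg FDR under 0.05 over all genes tested. The fit was tested on simulated data. CPM in the text used column totals. Replicates were taken as separate embryos from their labels, so p-values measure the spread between these libraries. The replicate numbers were not taken as pairs. Named pathway genes were those called and, in lists with none, the 2 with the highest CPM and the 2 with the largest change. Of the genes this rule names, 2 are not reported here. Genes named outside that rule (Plcg2, Inpp5d, Cx3cl1, Adgre1, Trem2, Cd68, Cd163 and the tailbud, placental and single-library genes) were chosen after their values were seen. Alternatives were other tests, normalizations and filters, a replicate block, CPM in place of RPKM and each library left out. Ratios of 2 and 5 for genes high in 1 library were added after seeing the data.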

Additional observations from a re-analysis of the deposited data

Results flagged for a closer look

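Among the wildtype libraries, 1 of 38 members and named genes had a library far from the other 3 by Dixon's criterion, which chance gives in about 1 of 20 groups. Lcp1, the actin-bundling protein plastin-2 of leukocytes, stood at 32.6 CPM in wildtype replicate 1 and at 37.6 to 38.0 CPM in the other 3. None of the 10 members met it.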

How the results depend on the processing

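Beside 203 genes called by the edgeR quasi-likelihood test, DESeq2 called 477, the likelihood ratio test 401 and the fit with no filter 876, and leaving out 1 library gave 61 to 175. Of the macrophage pathway genes 1 was called, against 10 with no filter and 0 to 2 with 1 library left out, where Csf1 lost its call without Cdx2P:Nr6a1 replicate 1 and Cxcl12 was called without wildtype replicate 4. Of the members 0 were called, against 1 (likelihood ratio test), 2 (no filter) and 0 to 1 (1 library left out, 1 without Cdx2P:Nr6a1 replicate 1). Krt18 lost its call without wildtype replicate 2 or 3 and without either Cdx2P:Nr6a1 library, with adjusted p between 0.0519 and 0.169 (edgeR). The causes were not tested, except that leaving out a Cdx2P:Nr6a1 library leaves 1 in that group, assumed to vary as the wildtype libraries do.

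With the replicate number as a block (replicate block), 442 genes and 3 pathway genes (Csf1, Cxcl12, Cxcr4) were called. Deviations of the same-numbered libraries correlated at 0.32 for number 1 and -0.28 for number 2. With 2 Cdx2P:Nr6a1 libraries, their deviations mirror each other, so these values are not separate checks. The highest value, 0.47, was between wildtype replicate 3 and Cdx2P:Nr6a1 replicate 2, of unlike numbers. The numbers were not taken as pairs. The block fit gave log2 fold changes of -0.042 for Id3, 0.14 for Sirpa, 0.059 for Syk and 0.014 for Ctsl. Each had the sign opposite to that of the fit without the block. Among the members, the sign also turned for Csf1r (0.04), C1qb (0.36), C1qc (0.28) and Ctss (0.18). C1qa moved to 0.95, Cx3cr1 to -0.05 and Fcer1g to 0.50. Wildtype replicates 3 and 4 share no number with a Cdx2P:Nr6a1 library, so they did not inform these fold changes.

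Several uncalled pathway genes near 0 changed sign. With limma voom the log2 fold change was -0.0097 for Id3, 0.0018 for Blnk, 0.018 for Sirpa and -0.0028 for Colec12. With library size only it was 0.0045 for Blnk and 0.0037 for Sirpa, and with the filterByExpr filter -0.0022 for Id3. With each library left out in turn it ranged from -0.27 to 0.25 for Id3, from -0.23 to 0.30 for Zeb2, from -0.049 to 0.044 for Blnk, from -0.15 to 0.13 for Sirpa, from -0.069 to 0.028 for Syk and from -0.079 to 0.14 for Calr. The ranges were -0.18 to 0.20 for Colec12, -0.014 to 0.055 for Pros1, -0.050 to 0.15 for Gas6, -0.50 to 0.10 for Lcp1 and -0.078 to 0.023 for Cyba.

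Of 140 member fold changes under alternatives, 132 moved by less than the spread between replicates. The members' low counts, with 2 libraries in 1 group, limit what could be detected: the SE of their log2 fold changes lay between 0.28 and 0.61. By CPM in place of RPKM, Cx3cr1 and Csf1r came first and second in wildtype and C1qa last. Added after seeing the data, a ratio of 2 or 5 in place of 3 gave 73 or 15 genes high in Cdx2P:Nr6a1 replicate 2.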
